A study of Caenorhabditis elegans with 2 samples.

Results

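The genes described here are 10 of the 19973 protein-coding genes of Caenorhabditis elegans: xol-1, the genes of the X-chromosome dosage compensation machinery sdc-1, sdc-2, sdc-3, dpy-21, dpy-26, dpy-27, dpy-28 and dpy-30, and the sex determination gene her-1. They were chosen by function after the binding peaks near xol-1 had been seen in these same lists, and the summits described were selected on position, as all those in the gene body or within 10 kb of either end. The signals and ranks near xol-1 are therefore the values that prompted the choice, and they are given as a description with no test. Binding was measured by chromatin immunoprecipitation and sequencing of the nuclear hormone receptor NHR-237 with an eGFP tag, in 2 biological replicates of a single group, whole L3 larvae of pooled male and female sex. Both replicates carried the strain OP228, with the alleles unc-119(ed3) III and wgIs228, the tagged transgene, and no untagged group is part of the comparison. Control coverage was not used here. Fragments measured 150 to 350 bp.

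XOL-1 is the early switch of worm sex determination. It is active in males, where it keeps sdc-2 off, and is kept low in hermaphrodites. In hermaphrodites SDC-2, with SDC-3, brings a condensin-like dosage compensation complex to both X chromosomes, where it lowers transcription, and the SDC proteins also repress her-1. The complex enters X at recruitment sites that share a GC-rich sequence, the MEX motif. Dosage compensation is set up in the embryo and kept through larval life, so L3 larvae are past the time at which xol-1 acts.

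The sequence under the summits carries the main observation, so it is shown before the values. The window of xol-1 held the only peaks of the authors' irreproducible discovery rate (IDR) list near any of the 10 genes, a pair upstream of the gene. The 201 bases centred on each of these summits are printed in lower case from the ce11 reference (RefSeq assembly WBcel235), plus strand, 5′ to 3′. Capitals mark the 8-base sequence GCGCAGGG, the inner bases of the MEX motif, and CCCTTC, on either strand. The summit of higher signal lies in chrX:8036327-8036527 and that of lower signal in chrX:8036535-8036735.
xol-1 peak of higher signal: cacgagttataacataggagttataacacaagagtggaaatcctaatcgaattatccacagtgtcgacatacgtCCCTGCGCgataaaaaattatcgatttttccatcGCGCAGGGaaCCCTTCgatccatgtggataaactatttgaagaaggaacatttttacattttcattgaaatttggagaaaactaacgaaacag
xol-1 peak of lower signal: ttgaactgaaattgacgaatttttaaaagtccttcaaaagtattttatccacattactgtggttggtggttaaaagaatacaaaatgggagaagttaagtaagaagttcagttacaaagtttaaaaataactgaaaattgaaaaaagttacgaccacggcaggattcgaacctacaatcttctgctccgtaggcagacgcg
The stretch at the higher summit held GCGCAGGG on each strand, at X 8036401 to 8036408 on the minus strand and X 8036435 to 8036442 on the plus strand. The cores lay 22 bp before and 12 bp after the summit, with 26 bp between them, and 4908 and 4874 bp upstream of the xol-1 start. The stretch at the lower summit held neither sequence. Its GC content was 34.8%, close to the 37.3% at the higher summit.

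The core had 13 matches within 100 bp of an IDR summit on X, at 10 peaks. The pair near xol-1 is set here beside the 4 matches at the 3 peaks of highest signal that hold the core, each named by the nearest protein-coding gene and printed on the strand that reads GCGCAGGG, with 10 bases on each side.
xol-1, minus strand, chrX:8036391-8036418: attttttatcGCGCAGGGacgtatgtcg
xol-1, plus strand, chrX:8036425-8036452: tttttccatcGCGCAGGGaacccttcga
W02H3.3, minus strand, chrX:11094216-11094243: ggaaccattcGCGCAGGGacacctcact
F20B6.9, minus strand, chrX:4209256-4209283: tgccgctatcGCGCAGGGacacctcttt
cest-16, plus strand, chrX:6296538-6296565: tttacatttgGCGCAGGGggtcaccata
cest-16, plus strand, chrX:6296566-6296593: gataggtatcGCGCAGGGaagatttacc
The letters next to the core were alike in most matches, and the cest-16 match at X 6296538 to 6296565 is an exception. Over the 13 matches, the base just before it was C in 10, the base before that was T in 11, and the base just after it was A in 10. A match is a description of the letters, and binding by the dosage compensation complex was not measured.

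The question of where candidate regions for tagged NHR-237 lay around these genes was addressed with 4 deposited ce11 lists. They were 1 of 30000 candidate regions from each replicate, 1 of 30000 from the pooled replicates, and the 48 IDR peaks. The lists of 30000 hold peaks and background regions together, so a summit in them need not be a site of binding. Rank 1 is the region of highest signal in a list. The signal is the authors' own value and its scale is not stated, so it ranks and describes regions within a list and has no SD. Read numbers were not given, so the depth behind each value is unknown. Whole larvae were used, and a signal cannot be assigned to a tissue or to a sex.

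xol-1 (WBGene00006962, X 8041313 to 8044409, plus strand) stood apart from the other 9 genes. It alone had an IDR peak in its window, and it had 2. That is 1 of 10 genes, against 1.15% of all protein-coding genes and 3.7% of those on X. Among the 3 X genes of the set the count was 1, and among the 7 autosomal genes it was 0. Of all 19973 genes, 4 had 2 IDR peaks in the window. They were xol-1 and its neighbours unk-1, C34D10.1 and C18A11.4, and all 4 share this same pair of peaks. The nearest IDR peak to any other member was 47.9 kb from the start of dpy-27. For the rest this distance ran from 219.1 kb at sdc-1 to 3263.4 kb at dpy-21.

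The summit of higher signal lay 4886 bp upstream of the xol-1 start. It had a signal of 36.9 in replicate 1 (rank 23), 47.98 in replicate 2 (rank 11) and 87.1 in the pool (rank 17). It was high in every list, and the replicate summits lay 0 and 10 bp from the pooled one. The summit of lower signal, 4678 bp upstream, had 34.8 in replicate 1 (rank 28), 13.7 in replicate 2 (rank 3732) and 54.97 in the pool (rank 32). It was high in replicate 1 and in the pool, and ranked far lower in replicate 2. The summits were 208 bp apart, and their regions of 350 bp, X 8036252 to 8036601 and X 8036460 to 8036809, overlapped by 142 bp. The spacing is within the fragment length of 150 to 350 bp.

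Neither summit lay at the annotated xol-1 promoter, taken as 1000 bp upstream to 100 bp downstream of the start. The nearest start to both was that of C18A11.13, a non-coding RNA gene at X 8036674 to 8036762, which was 247 bp from the higher summit and 39 bp from the lower. A tRNA gene on the opposite strand (WBGene00022939, X 8036685 to 8036757) overlaps C18A11.13 and lay 50 bp from the lower summit. The window map shows both summits in the stretch between C34D10.1 and xol-1, beside these small genes.

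**Figure D1:**
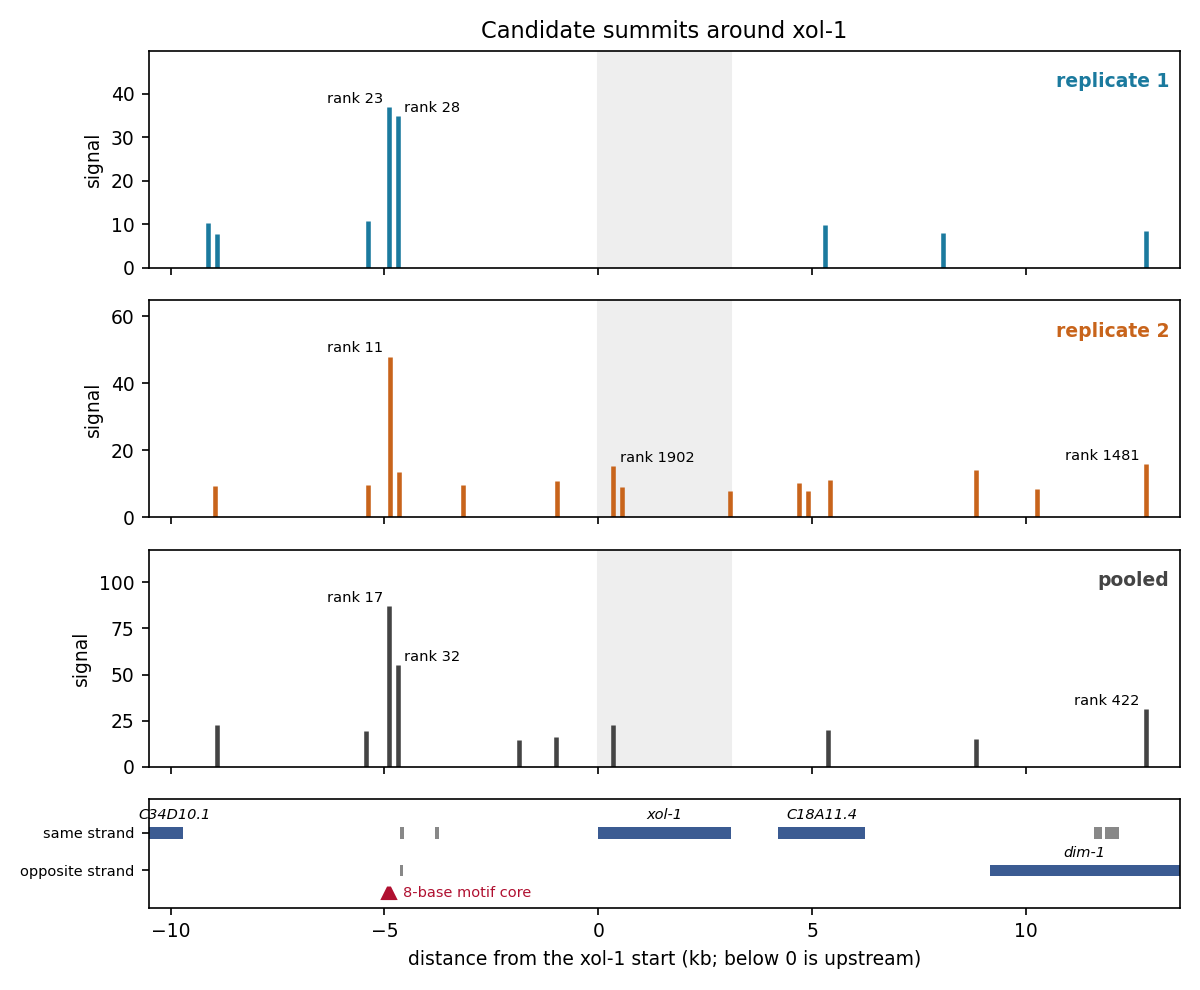
Candidate summits from 10 kb upstream to 10 kb downstream of xol-1. Each bar is a summit, the x axis is its distance from the xol-1 start in kb, and the y axis is the authors' signal in replicate 1, replicate 2 and the pool, on its own scale in each panel. Ranks in the list of 30000 are written beside summits of rank 1 to 2000, shading marks the xol-1 gene, blue boxes are protein-coding genes, grey boxes are other genes and triangles mark the 8-base core. The pair at 4886 and 4678 bp upstream is the highest in the pool, while replicate 2 has 1 high summit there.

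The remaining pooled summits around xol-1 ranked far below the pair, 1 at rank 422 and the others at rank 4861 or further down. The pooled list held 10 in the window, replicate 1 held 8 and replicate 2 held 15. At the promoter itself a summit 979 bp upstream had a signal of 16.4 in the pool (rank 18741) and 10.9 in replicate 2 (rank 10363), with none within 100 bp in replicate 1. In the coding sequence, 334 bp from the start, the pooled signal was 22.6 (rank 4861) and that of replicate 2 was 15.3 (rank 1902), again with none in replicate 1. The summits nearest to the start of xol-1 were thus absent from the candidates of 1 replicate. The next pooled summit in height lay 12797 bp downstream, in an intron of dim-1, a muscle gene. It was also at the promoter of the non-coding RNA gene C18A11.10, 463 bp from that start. The signal there was 8.48 in replicate 1 (rank 23609), 15.8 in replicate 2 (rank 1481) and 31.2 in the pool (rank 422).

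Across the 10 genes, the best-ranking summit in the window separated xol-1 in replicate 2 and the pool, and xol-1 with dpy-28 in replicate 1. Its median rank over the members was 1441.5 in the pool, 2366 in replicate 1 and 1613.5 in replicate 2. Over all protein-coding genes with a summit in the window the medians were 2912, 2965.5 and 2965, and over X genes in the pool 2134. Without xol-1 the members' medians were 1694, 3247 and 1698, so that of replicate 1 moved to the other side of its background median. Signals of the best pooled summits ran from 21.1 at sdc-1 to 87.1 at xol-1. The count of members with a summit among the 500 highest of the pool was 2, dpy-28 and xol-1, against 11.3% of all protein-coding genes. Summit density had a median of 0.299 pooled summits per kb of window, against 0.310 over all protein-coding genes. The median was 0.260 for the members on X, against 0.354 for all X genes. It was 0.338 for the autosomal members, against 0.297 for all autosomal genes, so the direction differed between X and autosomes.

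**Figure D2:**
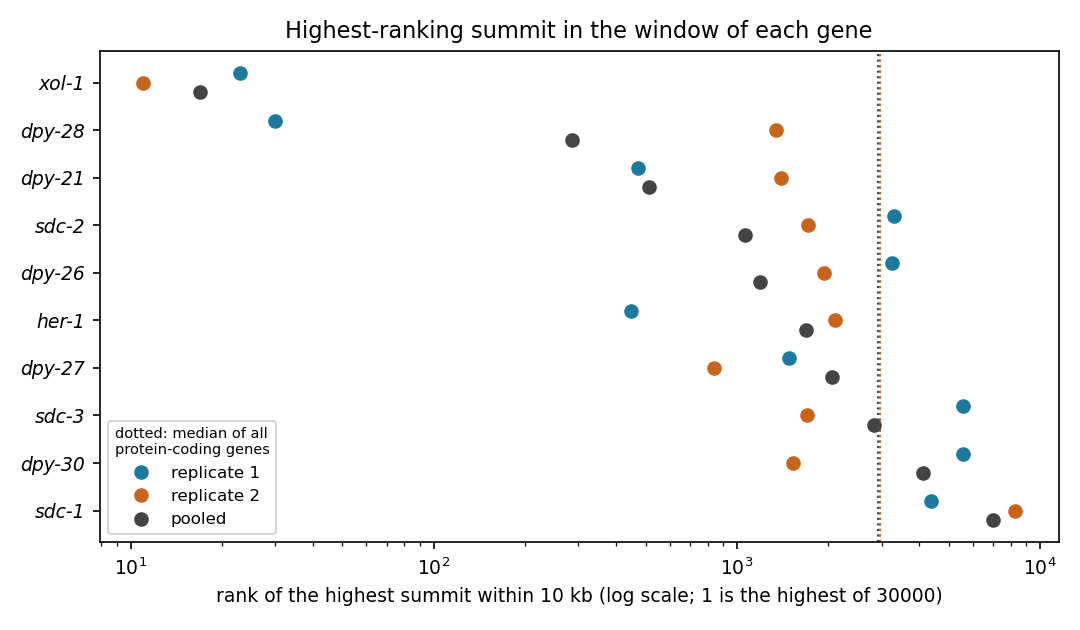
Rank of the highest summit in the window of each gene, on a log axis on which 1 is the highest of 30000, with genes in the order of their pooled rank. Points are replicate 1, replicate 2 and the pool, and dotted lines are the medians over all protein-coding genes. The 3 xol-1 points lie between 11 and 23, and dpy-28 has rank 30 in replicate 1 but 1348 in replicate 2.

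The SDC genes include sdc-2, which XOL-1 keeps off in males. sdc-2 (WBGene00004746, X 11522707 to 11533450), which encodes the large protein that triggers assembly of the complex on X, had its highest pooled summit in its own intron, 1575 bp from the start. The signal there was 28.3 in the pool (rank 1059), 11.2 in replicate 1 (rank 10078) and 15.5 in replicate 2 (rank 1710). It was matched within 100 bp in both replicates but was not the highest in replicate 1, where a summit in a coding exon 7092 bp from the start had 14.2 (rank 3307).

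sdc-3 (WBGene00004747, V 15039148 to 15048207, minus strand), which encodes a zinc finger protein, had its highest pooled summit inside the gene, 1450 bp from the start in a coding exon. The signal was 24.7 in the pool (rank 2837), 10.4 in replicate 1 (rank 13274) and 15.5 in replicate 2 (rank 1698). A second summit lay at the promoter, 676 bp upstream, with 20.3 in the pool (rank 8385), 7.78 in replicate 1 (rank 28714) and 11.6 in replicate 2 (rank 7930). Both were present in the pool and in both replicates, and both ranked lower in replicate 1 than in replicate 2. sdc-3 was the only member whose promoter summit was found in both replicates within 100 bp.

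sdc-1 (WBGene00004745, X 16275763 to 16282534), which encodes another zinc finger protein, had the fewest pooled summits of the set, 3, and the lowest best signal. The highest, 6193 bp upstream in an intron of ifa-3, an intermediate filament gene, had 21.1 in the pool (rank 6984), 8.29 in replicate 1 (rank 24867) and 11.5 in replicate 2 (rank 8257). All 3 were matched in both replicates, so a summit can recur in the replicates and still rank low in each.

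The condensin-like subunits come next. dpy-27 (WBGene00001086, III 3813018 to 3819679, minus strand) encodes the SMC protein particular to the complex, and its highest pooled summit lay at its own promoter, 31 bp inside the start. The signal was 25.9 in the pool (rank 2057) and 11.03 in replicate 1 (rank 10597), while the nearest summit in replicate 2 lay 135 bp away with 10.2 (rank 12931). The highest summits of the replicates lay elsewhere, 15995 bp downstream in an intron of xbx-5 in replicate 1 (16.2, rank 1485) and 12140 bp downstream in an intron of toh-1 in replicate 2 (17.1, rank 841). The lists thus place the highest summit of this window at 3 different positions.

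dpy-26 (WBGene00001085, IV 12445801 to 12451335, minus strand), which encodes the kleisin subunit, had the most pooled summits of the set, 14. The highest lay 6179 bp upstream in a non-coding exon of C25G4.7, with 27.9 in the pool (rank 1189), 14.3 in replicate 1 (rank 3247) and 12.7 in replicate 2 (rank 5375). It ranked lower in each replicate than in the pool. At the promoter, 79 bp inside the gene, the signal was 17.8 in the pool (rank 14297) and 8.55 in replicate 2 (rank 21722), with no match in replicate 1.

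dpy-28 (WBGene00001087, III 10763131 to 10777076), which encodes a HEAT-repeat subunit shared with the mitotic condensin, differed between the replicates at its highest summit. Its highest summit lay 3896 bp upstream, 72 bp before the start of tasp-1, a neighbouring gene for a threonine aspartase, and also at the promoter of K01G5.10. The signal was 33.5 in replicate 1 (rank 30) and 32.7 in the pool (rank 286). Replicate 2 had no summit within 100 bp. The nearest was 497 bp away, with 16.1 (rank 1348). The summit is high in replicate 1 alone, and its rank in the pool is lower than in that replicate. None of the 6 pooled summits of this window was matched in replicate 2, whereas 5 of the 6 were matched in replicate 1. The 2 in the gene body had replicate 2 summits 104 and 134 bp away, a little past the 100 bp limit.

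**Figure D3:**
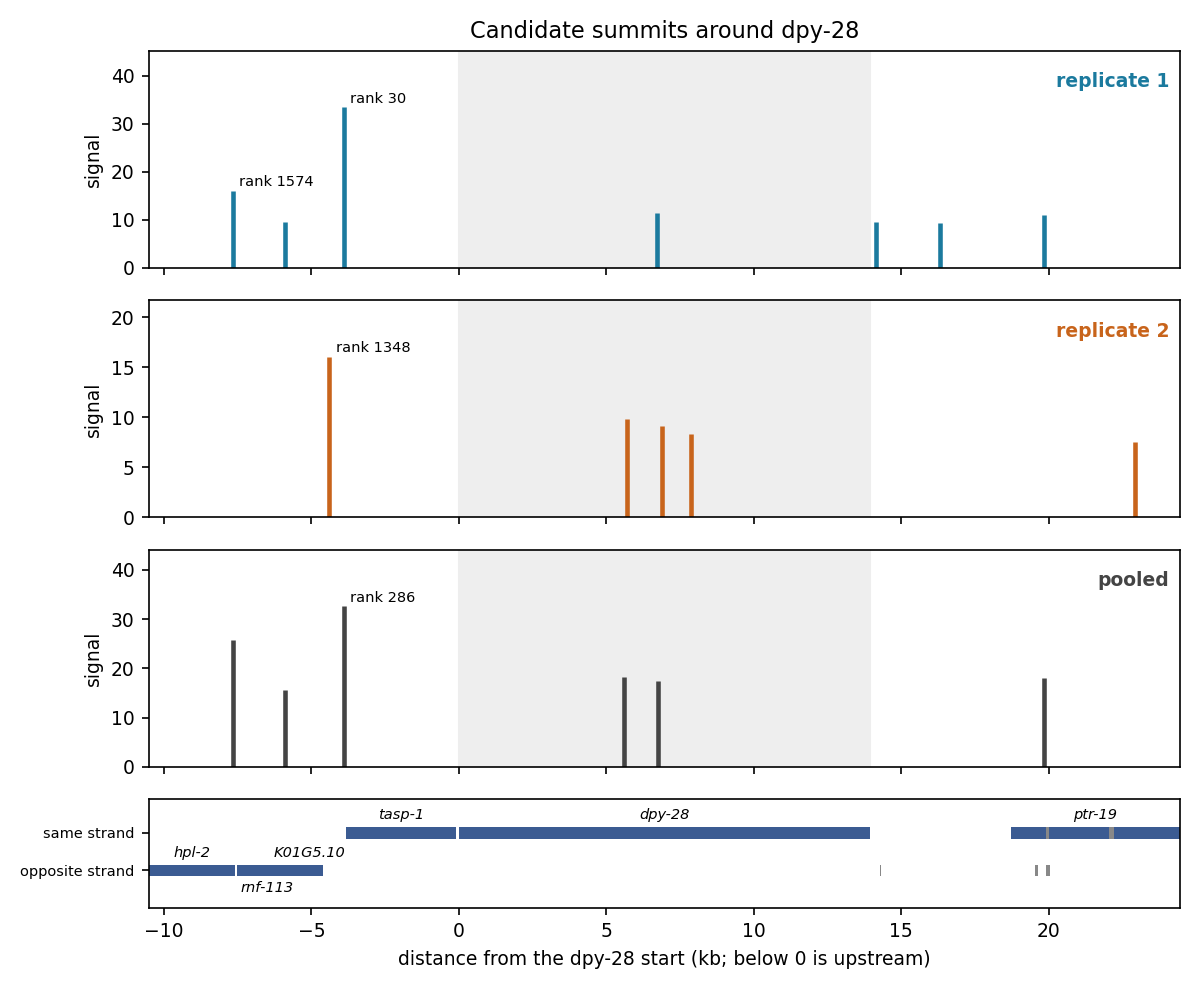
Candidate summits around dpy-28, drawn as for xol-1, with the distance from the dpy-28 start in kb on the x axis and the authors' signal on the y axis. The tallest bar in replicate 1 (33.5, rank 30) and in the pool (32.7, rank 286) sits between K01G5.10 and tasp-1, where replicate 2 has a lower summit 497 bp away.

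The 201 bases around this summit, chrIII:10759135-10759335, and those around the highest dpy-21 summit, chrV:17948041-17948241, are shown as the highest autosomal summits of the set, to set beside the X peaks above. Both are plus-strand ce11 sequence, and capitals would again mark GCGCAGGG or CCCTTC.
dpy-28 summit: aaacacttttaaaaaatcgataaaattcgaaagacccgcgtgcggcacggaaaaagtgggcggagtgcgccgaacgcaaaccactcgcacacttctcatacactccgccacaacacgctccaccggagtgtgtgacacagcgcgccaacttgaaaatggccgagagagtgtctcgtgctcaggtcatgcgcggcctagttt
dpy-21 summit: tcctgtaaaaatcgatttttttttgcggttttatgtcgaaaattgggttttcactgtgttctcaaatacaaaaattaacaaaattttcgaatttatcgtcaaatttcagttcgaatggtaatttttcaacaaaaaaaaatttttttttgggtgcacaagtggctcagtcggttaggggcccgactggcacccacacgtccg
Neither stretch held either sequence. The GC content was 53.7% at dpy-28 and 35.8% at dpy-21.

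dpy-21 (WBGene00001080, V 17936282 to 17949193, minus strand) encodes a demethylase of histone H4 lysine methylation on X. Its highest summit was in its own intron, 1052 bp from the start, with 19.03 in replicate 1 (rank 471), 15.98 in replicate 2 (rank 1399, 84 bp away) and 30.6 in the pool (rank 514). This was the highest summit of the window in every list. The only other member for which the best summits of the replicates lay within 100 bp of each other was xol-1. That makes 2 of 10 members, against 6.65% of the 19724 protein-coding genes with a summit in each list. xol-1 was chosen with its peaks in these lists already seen, so only dpy-21 adds to this count.

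dpy-30 (WBGene00001088, V 12191519 to 12192385) encodes a small subunit shared with the complexes that methylate histone H3 lysine 4. It was the only member without a pooled summit inside the gene, which is the shortest of the set at 867 bp. Of the members, 9 of 10 had one, against 53.8% of all protein-coding genes, and their gene bodies ran up to 13946 bp. The highest pooled summit lay 2523 bp from the dpy-30 start, in a coding exon of rnp-1 and at the promoter of ogdh-2, with 23.2 in the pool (rank 4093), 10.7 in replicate 1 (rank 11850) and 13.8 in replicate 2 (rank 3599). It ranked lower in replicate 1 than in replicate 2 and the pool.

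her-1 (WBGene00001842, V 9697015 to 9702035), the target of the SDC proteins, encodes a secreted protein that promotes male development. Its highest pooled summit lay 4964 bp upstream, in a coding exon of ztf-9 and 108 bp from the start of that zinc finger gene. That summit was also at the promoter of the non-coding RNA gene ZK287.11. The signal was 26.6 in the pool (rank 1694) and 19.2 in replicate 1 (rank 448). The nearest summit in replicate 2 was 212 bp away, with 14.1 (rank 3097). Inside the gene 3 pooled summits lay in introns, with 14.3 (rank 27555), 16.4 (rank 18935) and 14.2 (rank 28307), all in the lower part of the list. None of the 13 pooled summits of the window was matched in both replicates within 100 bp. Some matched in a single replicate had a summit of the other 124, 168 or 193 bp away.

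**Figure D4:**
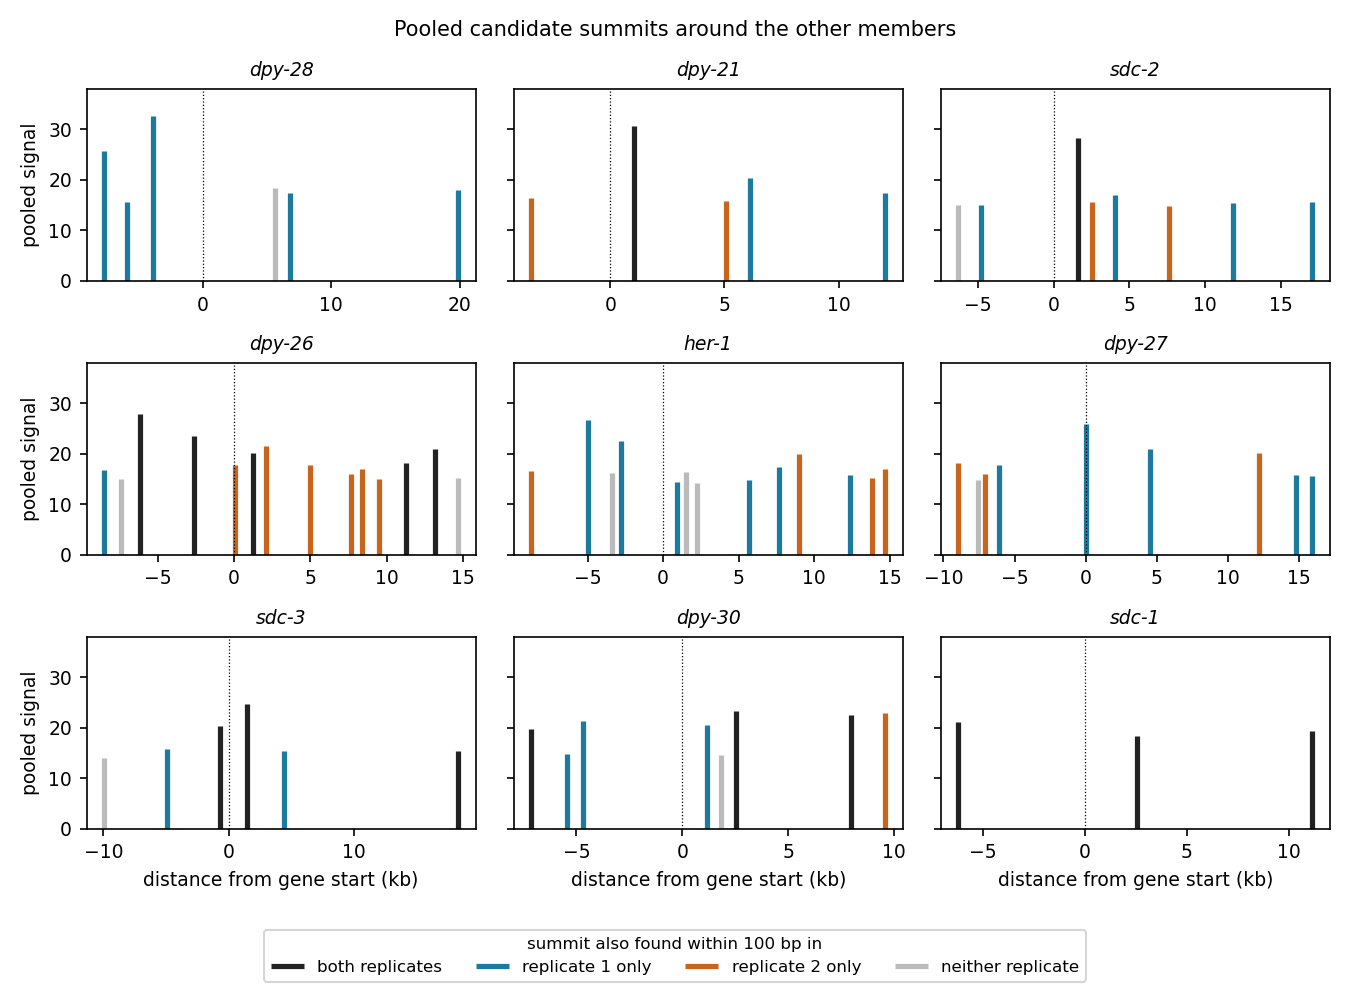
Pooled candidate summits in the windows of the 9 members other than xol-1, in the order of their best pooled rank. The x axis of each panel is the distance from the gene start in kb, the y axis is the authors' pooled signal, and colour shows whether a summit was found within 100 bp in both replicates, in replicate 1 or 2 only, or in neither. No bar exceeds 32.7, at dpy-28, and the windows of dpy-27, dpy-28 and her-1 hold no summit found in both.

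The 82 pooled summits of the 10 windows were then compared with the replicate lists. A match in both was found for 22 (26.8%, exact Clopper-Pearson 95% interval 17.6 to 37.8%), against 20.5% of all 30000 pooled summits. A match in replicate 1 alone was found for 28, in replicate 2 alone for 21 and in neither for 11. The interval covers counting error over summits only. It treats the summits of a window as independent and includes the xol-1 window, whose peaks prompted the choice. No test was made. By gene the count matched in both was 6 of 10 at xol-1, 3 of 3 at sdc-1, 3 of 6 at sdc-3 and 5 of 14 at dpy-26. It was 3 of 8 at dpy-30, 1 of 8 at sdc-2, 1 of 5 at dpy-21 and 0 at dpy-27, dpy-28 and her-1. Those counts of 0 depend on the 100 bp limit. In those windows a pooled summit matched in a single replicate had a summit of the other 135, 134 and 168 bp away, in turn. Among members, 7 of 10 had their best pooled summit matched in both replicates, against 52.2% of protein-coding genes. The 7 include xol-1, whose best summit prompted the choice.

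Positions within the windows were also described. Promoters of any gene held 24 of the 82 summits (29.3%, against 29.8% of all pooled summits), exons 34 (41.5% against 28.7%), introns 18 (21.95% against 25.6%) and intergenic sequence 6 (7.32% against 15.9%). The windows are centred on genes, which the set of all pooled summits is not. A pooled summit at the member's own promoter was found for 4 of 10, xol-1, sdc-3, dpy-26 and dpy-27, against 31.1% of all protein-coding genes, so the share is near the background. The best pooled summit lay inside the gene for sdc-2, sdc-3, dpy-21 and dpy-27, 4 of 10 members, against 12.7% of 19724 protein-coding genes and 19.2% of the 26 other pathway genes. Gene lengths were not matched in this comparison. At the edge of the windows, the last summit inside was 9925 bp from sdc-3 (14.0, rank 29216) and the nearest outside was 10021 bp from dpy-27 (17.6, rank 14887). The lowest IDR peak had a signal of 42.7 and the next pooled region 42.1, above every summit near a member except the xol-1 pair.

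The core sequence was followed beyond xol-1 because it marks the higher summit there. It was chosen with the short sequences frequent at these IDR peaks already known, so its counts describe the peaks and test nothing. GCGCAGGG, searched on both strands within 100 bp of a summit, was at 10 of 26 X IDR peaks (38.5%) and 0 of 22 autosomal IDR peaks. It was at 9 of 6121 other X candidates (0.147%) and 15 of 23831 other autosomal candidates (0.0629%). Protein-coding promoters held it in 70 of 19973 cases (0.35%) and the members' promoters in 0 of 10. The other capitalised sequence, CCCTTC, was at more X IDR peaks, 14 of 26 (53.8%), at 1 of 22 autosomal IDR peaks, and at 4.33% of other X and 4.92% of other autosomal candidates. With 1 mismatch allowed in GCGCAGGG, 17 of 26 X IDR peaks and 2.71% of the other X candidates held it.

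The X peaks with the core had signals from 64.4 to 204 with a median of 108.8, and the 16 without it from 43.2 to 161 with a median of 59.1. These ranges overlap, and the X peak of 161, next after the highest, lacked the core. At 3 peaks it occurred in 2 copies, those near xol-1, cest-16 and gtr-1. Of the 81 occurrences on X (4.57 per Mb), 22 lay within 100 bp of a pooled summit and 13 within 100 bp of an IDR summit. Of the 233 on autosomes (2.82 per Mb), 15 and 0 did. Most copies on X thus had no candidate beside them.

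**Figure D5:**
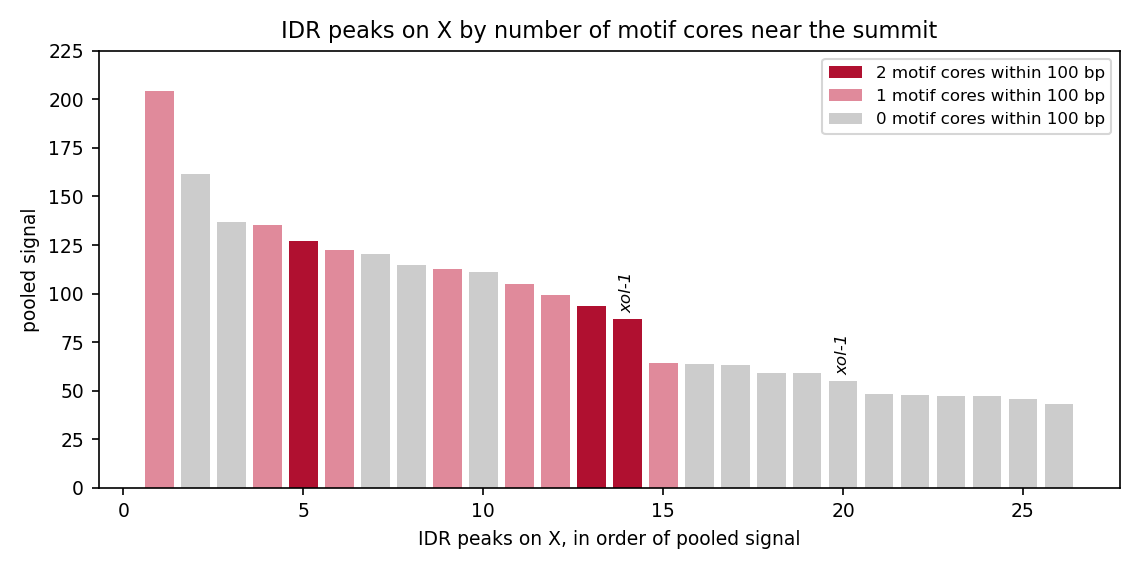
The 26 IDR peaks on X in order of pooled signal. Bar height is the authors' pooled signal, colour is the number of copies of the 8-base core within 100 bp of the summit, and the xol-1 pair is named. The 10 peaks with the core run from 204 down to 64.4, and of the xol-1 pair the one at 87.1 has 2 copies and the one at 54.97 has none.

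Within the windows of the 10 genes the core occurred 3 times, the pair at xol-1 and a copy in her-1 at V 9698991 to 9698998, 1980 bp from the start. The her-1 copy was 240 bp from a pooled summit of 14.2, and no summit lay within 100 bp of it. The 5 other sequences were searched in the same way. Shares of summits are over 201 bases, and those of promoters are over a longer stretch and cannot be set against them. CCCTTC was at 2 of 82 summits (2.44%, and 21.9% of promoters). GAGAGA was at 6 (7.32%), against 10.3% of other X and 11.8% of other autosomal candidates (48.7% of promoters). TGGGTGGTC, the inner bases of the site of the sex determination factor TRA-1, was at 0, against 0.114% and 0.0629% (0.371% of promoters). AGGTCA, a core sequence of nuclear receptor sites, was at 5 (6.10%), against 5.02% and 5.01% (25.0% of promoters). Its variant AGTTCA was at 14 (17.1%), against 15.5% and 14.0% (54.8% of promoters). At the 26 X and 22 autosomal IDR peaks, GAGAGA was at 5 and 8, TGGGTGGTC at 0 and 0, AGGTCA at 1 and 2, and AGTTCA at 3 and 2. The 10 promoters of the members held CCCTTC in 3, GAGAGA in 8, TGGGTGGTC in 0, AGGTCA in 3 and AGTTCA in 6. No match says only that these letters are not in the window searched.

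Other genes of the pathway were read from a list of 26, all found in the annotation. None had an IDR peak in its window, against 1.15% of all protein-coding genes, and 3 had a summit among the 500 highest of the pool, against 11.3%. A summit at the promoter was found for 9, against 31.1%, and one in the gene body for 20, against 53.8%. The counts for the 500 highest and for promoters are near the background, and 0 of 26 cannot be told apart from a share of 1.15%. Gene lengths were not matched for the gene-body count. The best pooled signals of the 26 genes ran from 17.4 to 41.5, below the xol-1 pair. tra-2 (II 6955384 to 6965673), which encodes the membrane receptor inhibited by HER-1, had a summit in its own intron with 41.4 in the pool (rank 54), 17.1 in replicate 1 (rank 998) and 26.1 in replicate 2 (rank 31). dmd-3 (V 19650025 to 19655251), a male-promoting factor of the doublesex family, had 41.5 in the pool (rank 53), 20.7 in replicate 1 (rank 249) and 18.4 in replicate 2 (rank 463), at a summit 12036 bp from its start. That summit lay in an intron of Y43F8C.7 and 28 bp from the snoRNA gene Y43F8C.22. set-2 (III 4922427 to 4930204), a histone H3 lysine 4 methyltransferase that works with DPY-30, had 32.9 in the pool (rank 271), 10.2 in replicate 1 (rank 13842) and 17.3 in replicate 2 (rank 786), in a coding exon. tra-2 and dmd-3 ranked within the first 1000 in both replicates, and set-2 did so in replicate 2 only. Over the 26 genes the median best rank in the pool was 3773, against 2912 over all protein-coding genes.

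The genes whose best ranks in the 3 lists were closest to those of xol-1, by Euclidean distance of log10 rank over pool, replicate 1 and replicate 2, were taken after leaving out genes that share its best summit, among them unk-1, C34D10.1 and C18A11.4, or that of a nearer gene. They were brc-1, cutl-22, mnk-1, rbm-25 and pks-1. brc-1, the worm BRCA1 gene on III, was the nearest of the genes kept, at a distance of 0.136, with ranks 16, 19 and 14 and a pooled signal of 89.04 at a peak within reach of 4 genes. This is the same peak that lay nearest to dpy-27. cutl-22 on V (distance 0.262, ranks 19, 29 and 19), the kinase gene mnk-1 on II (0.283, ranks 13, 13 and 13) and rbm-25 on V (0.318, ranks 29, 25 and 18) followed. pks-1, a polyketide synthase gene, was the only one on X (0.323, ranks 12, 12 and 12, signal 104.95), at an X peak in an exon whose flanks hold the core. The likeness is one of ranks in lists and says nothing of the genes.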

How the data were processed

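The submitters deposited lists of peaks and background regions for each replicate and for the pooled replicates, and an IDR list carrying pooled values, per the labels and the deposited files. Each region's signal is the authors' value. On its scale, the aligner, the peak caller and the IDR threshold, nothing is given in the sources used here. Positions are ce11 and 1-based, and the ce10 lists were not used.

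Every summit in the gene body or within 10 kb was listed with Ensembl release 115 genes on WBcel235, piRNA genes left out. A promoter covered 1000 bp before and 100 bp after a gene start, and location was read as promoter, exon, intron, then intergenic. Summits within 100 bp were matched. Sequences came from the RefSeq WBcel235 genome. Exact binomial (Clopper-Pearson) 95% intervals cover counting error over summits only. No test was made, since there is 1 group and the members, motifs and lists were chosen with earlier results of these data known. Named were the members, the gene nearest to each best summit or IDR summit, pathway genes with an IDR peak or a summit among the 500 highest, and the 5 genes most like xol-1 in rank. Genes at other summits and peaks were named after their values were seen. The counting steps were tested on simulated data. Alternatives covered window, promoter and match sizes, stricter lists, single replicates and motif settings. Python 3.11.15, numpy 2.4.6, pandas 2.3.3, scipy 1.17.1 and matplotlib 3.10.9 were used.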

Additional observations from a re-analysis of the deposited data

How the results depend on the processing

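xol-1 was the only member with an IDR peak at windows of 5 and 20 kb and among the 24 IDR peaks of highest signal. Its higher peak prompted the choice and ranked high in every list, so this outcome was fixed beforehand and is no support. For single replicates, the 48 top regions of a replicate replaced the IDR list. The count of members with such a region was 1 to 2, with dpy-28 beside xol-1 when replicate 2 was left out. Windows of 5 and 20 kb held 49 and 137 pooled summits, and the 10000 highest candidates left 32. Replicates alone gave 83 to 88. Members with a summit at the promoter numbered 2 with 500 bp promoters and 2 among the 10000 highest candidates. The median best rank was 564.5 with 20 kb, 1875.5 with 5 kb and 1613.5 to 2366 in single replicates. The core was at 17 X IDR peaks with 1 mismatch. A wider window or an allowed mismatch can only add to a count, and a wider window can only better a rank. A narrower window, a shorter promoter or a shorter list can only do the reverse. Those directions were fixed by the settings, and the cause of the moves in single replicates was not tested. The other settings moved no count by more than 1.5 times: 2000 bp promoters gave 4 members, matching within 50 and 200 bp gave 15 and 31 summits, and the core was at 10 and 12 peaks within 50 and 250 bp. No paired analysis was possible because there is a single group. Read depth is unknown, and 2 replicates without an untagged group limit every value above.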
